A study of Mus musculus with 16 samples.

Results

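Transcript levels of 9 regulators of the integrated stress response around the transcription factor Atf4 were measured in brown adipose tissue (BAT) and gonadal white adipose tissue (gWAT) of Adipo-Pgam1 KO mice. The genes were Atf4, Atf3, Atf5, Ddit3, Trib3, Chac1, Nupr1, Sesn2 and Ppp1r15a, 9 of the 22911 genes that the array names through a RefSeq accession. They were chosen by name, and each was read on the probe selected on its mean signal over all 16 arrays, the brightest probe of the gene. Adipo-Pgam1 KO mice (Adipoq-Cre+: Pgam1 flox/flox) carry Cre under the adiponectin promoter, which is active in adipocytes, so that other cells of the depot keep the floxed gene. The controls were Adipoq-Cre-: Pgam1 flox/flox littermates, which the labels call wild-type. Each depot and genotype had 4 arrays, 1-colour Agilent arrays of total RNA from male mice of the strain C57BL/6NCrSlc. The mice were 16 weeks old, except those of KO replicate 4, which were 14 weeks old in both depots. Nothing in the labels says whether a BAT and a gWAT array of the same number came from the same mouse, so p-values measure only the spread between these arrays.

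When a cell is short of amino acids, loads its endoplasmic reticulum with unfolded protein, lacks heme or senses double-stranded RNA, one of a family of kinases phosphorylates the translation factor eIF2. General translation then slows, while the mRNA of Atf4 is translated more efficiently through its upstream open reading frames. Atf4 pairs with other bZIP proteins on DNA and raises genes of amino acid supply and redox balance, other stress transcription factors and, through Ppp1r15a (Gadd34), a phosphatase subunit that dephosphorylates eIF2 and closes the loop. Transcript level is therefore only 1 of the layers at which Atf4 is controlled, and protein was not measured on these arrays.

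The promoters were searched for 2 elements that Atf4 and its partners are known to bind. The 250 bases before each RefSeq gene start (GRCm38.p6) were searched on both strands for TGATGNAA, the C/EBP-Atf response element, and for TGACGTCA, the palindromic cAMP response element. All 9 genes had a window, and Atf5 had 2, which makes 10 windows. TGATGNAA was present in the window of 3 genes, Atf3, Chac1 and Nupr1, and in 3.45% of all 32851 windows. TGACGTCA was present in that of Ppp1r15a alone among the 9, and in 1.55% of all windows. No window of the 9 genes held both motifs, so no match to one overlapped a match to the other. The 4 sequences are given below from 5′ to 3′ along the gene, with the match in capitals, because these are the genes whose windows hold either element.

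Atf3 promoter, chr1:191183334-191183583, strand minus: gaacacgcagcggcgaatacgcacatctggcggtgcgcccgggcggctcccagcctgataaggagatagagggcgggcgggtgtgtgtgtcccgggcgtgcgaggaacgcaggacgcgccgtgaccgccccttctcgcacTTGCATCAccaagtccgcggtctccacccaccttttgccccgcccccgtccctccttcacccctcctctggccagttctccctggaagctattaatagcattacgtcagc

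Chac1 promoter, chr2:119350992-119351241, strand plus: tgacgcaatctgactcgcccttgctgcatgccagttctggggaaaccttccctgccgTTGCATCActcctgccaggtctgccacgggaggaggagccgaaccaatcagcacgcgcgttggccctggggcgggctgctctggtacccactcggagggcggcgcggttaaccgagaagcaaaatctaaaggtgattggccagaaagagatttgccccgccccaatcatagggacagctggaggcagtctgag

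Nupr1 promoter, chr7:126625471-126625720, strand minus: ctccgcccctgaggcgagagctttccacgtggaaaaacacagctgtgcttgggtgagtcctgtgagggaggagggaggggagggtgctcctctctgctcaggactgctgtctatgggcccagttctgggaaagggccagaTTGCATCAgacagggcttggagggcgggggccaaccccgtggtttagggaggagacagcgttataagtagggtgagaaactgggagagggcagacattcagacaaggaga

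Ppp1r15a promoter, chr7:45526269-45526518, strand minus: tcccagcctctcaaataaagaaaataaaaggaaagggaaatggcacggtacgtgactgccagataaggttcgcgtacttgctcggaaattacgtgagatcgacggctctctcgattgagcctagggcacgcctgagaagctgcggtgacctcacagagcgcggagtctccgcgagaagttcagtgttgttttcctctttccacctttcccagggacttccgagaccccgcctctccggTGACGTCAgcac

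In Atf3, Chac1 and Nupr1 the match lies on the opposite strand, so that it reads as ttgcatca along the gene. It spans bases 110 to 103 before the start in both Atf3 and Nupr1, and bases 193 to 186 in Chac1. In Ppp1r15a it lies next to the start, at bases 12 to 5. The windows of Atf4, Atf5, Ddit3, Trib3 and Sesn2 held neither string of letters, which says nothing of sites elsewhere in these genes. A match is a string of letters, and binding was not measured.

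Levels are given as log2 of a probe's signal over the 75th percentile of its array, so 0 is the 75th percentile and a step of 1 doubles the signal. None of the 9 probes fell short of being well above background on any of the 16 arrays. A gene entered a comparison if all 4 arrays of at least 1 of its groups showed it well above background, and a gene is called when limma's p-value, adjusted by the Benjamini-Hochberg method over all genes tested, is below 0.05. Several facts of the arrays bear on what follows. Pgam1 itself fell in BAT by 1.74 on the log2 scale (SE 0.11, adjusted p = 1.11e-05), but in gWAT the arrays labelled KO stood above their controls by 0.95 (SE 0.19, adjusted p = 0.014), so gWAT directions are those of the labels. The arrays lay on 3 slides. Slide 1 held BAT control replicates 1 to 3. Slide 2 held BAT control replicate 4, the 4 BAT KO arrays and gWAT control replicates 1 to 3. Slide 3 held gWAT control replicate 4 with the 4 gWAT arrays labelled KO, and it was scanned on another day than slides 1 and 2. The other 3 gWAT controls thus differed from the arrays labelled KO in both slide and scan day. The 75th percentile of an array was 401 to 451 in BAT controls and 650.2 to 916 in BAT KO arrays, and 570.3 to 855 in gWAT.

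In BAT, 8 of the 9 regulators rose in Adipo-Pgam1 KO mice, and Sesn2 did not pass the test. The rise was 2.04-fold for Nupr1 and 19.8-fold for Trib3, the ends of the range. The median log2 change of the 9 genes was 2.28, against -0.08 over all 14270 genes tested. Of all genes tested, 27.5% were called higher in the BAT KO arrays and 33.9% lower, so a call alone sets a gene little apart in this tissue. In the same 8 genes, every KO array stood above every control array. Such groups without overlap were found for 57.1% of all genes tested, in either direction. With 4 arrays against 4, the smallest p of a two-sided exact permutation test is 0.0286, and each of these 8 genes reached it. By size of the log2 change, Trib3 ranked 62, Chac1 93 and Atf3 120 from the top of the 14270 genes.

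Atf4 is the bZIP factor at the centre of the response (probe A_55_P1979728). In BAT its log2 level was 6.36, 6.24, 6.05 and 5.54 in control replicates 1 to 4 and 7.59, 7.74, 7.61 and 7.81 in Adipo-Pgam1 KO replicates 1 to 4. The KO arrays lay within a narrow band and all above the controls, of which replicate 4 was the lowest. The change was 1.64 (SE 0.18, adjusted p = 8.22e-05), which is 3.12-fold, and a second probe of the gene gave 1.72. In gWAT the levels were 5.79, 6.23, 5.73 and 5.97 in controls and 6.84, 6.03, 5.23 and 5.75 in the arrays labelled KO. These groups overlapped, with replicate 1 of the arrays labelled KO above and replicate 3 below all controls. The mean difference was 0.034 (SE 0.31, adjusted p = 0.952), and it turned to -0.26 without that replicate 1. It was also below 0 under quantile normalization (-0.24), normexp background correction (-0.033) and scaling by Actb and Rplp0 (-0.024), so no direction is given for Atf4 in gWAT.

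Atf3 is a stress-induced bZIP factor that is raised by Atf4 and by other signals, inflammatory ones among them. Its log2 level in BAT was 1.19, -1.54, -1.11 and -1.91 in controls and 2.71, 2.93, 2.32 and 3.33 in Adipo-Pgam1 KO mice. Control replicate 1 stood well above the other 3 controls and still below every KO array. The change was 3.66 (SE 0.61, adjusted p = 0.000893), a 12.7-fold rise. In gWAT Atf3 was at -0.65, -1.91, -2.04 and -0.78 in controls and at 0.14, -0.12, -0.50 and 2.44 in the arrays labelled KO. The groups did not overlap, but replicate 4 carried much of the mean difference of 1.84 (SE 0.63, adjusted p = 0.0768), which was 1.19 without it (adjusted p = 0.0642). Among other bZIP genes, Fosl2 and Jund were called higher in BAT, by 2.39 (adjusted p = 0.000172) and 0.64 (adjusted p = 0.0223), whereas Fos, Junb and Jun did not pass the test. Fos differed by 1.08 (adjusted p = 0.177), Junb by 1.13 (adjusted p = 0.0662) and Jun by 0.10 (adjusted p = 0.816). Fos also stood at 3.99 in BAT control replicate 1, the array with the high Atf3, against 1.68 to 2.53 in the other controls.

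Atf5, a bZIP factor whose mRNA is also translated under eIF2 phosphorylation and which is known for the mitochondrial stress response, rose in both depots. In BAT it was at 6.92, 6.70, 6.90 and 6.95 in controls and at 8.19, 8.31, 8.12 and 8.41 in Adipo-Pgam1 KO mice. In gWAT it was at 6.00, 6.62, 6.47 and 6.67 in controls and at 8.54, 8.42, 8.27 and 7.68 in the arrays labelled KO. The groups were apart in both depots. The log2 change was 1.39 in BAT (SE 0.10, adjusted p = 1.74e-05) and 1.79 in gWAT (SE 0.22, adjusted p = 0.00298). Its second probe gave 1.56 and 1.97.

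Ddit3 encodes CHOP, a C/EBP-related factor tied to the pro-apoptotic branch of the response. Its level in BAT was 1.41, 1.16, 1.64 and 1.0 in controls and 2.86, 3.56, 4.14 and 3.78 in Adipo-Pgam1 KO mice, a change of 2.28 (SE 0.27, adjusted p = 0.000124). In gWAT it was 0.24, 0.46, 0.11 and -0.14 in controls and 2.51, 2.10, 1.53 and 1.09 in the arrays labelled KO, a change of 1.64 (SE 0.30, adjusted p = 0.0104). Neither depot showed overlap.

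**Figure D1:**
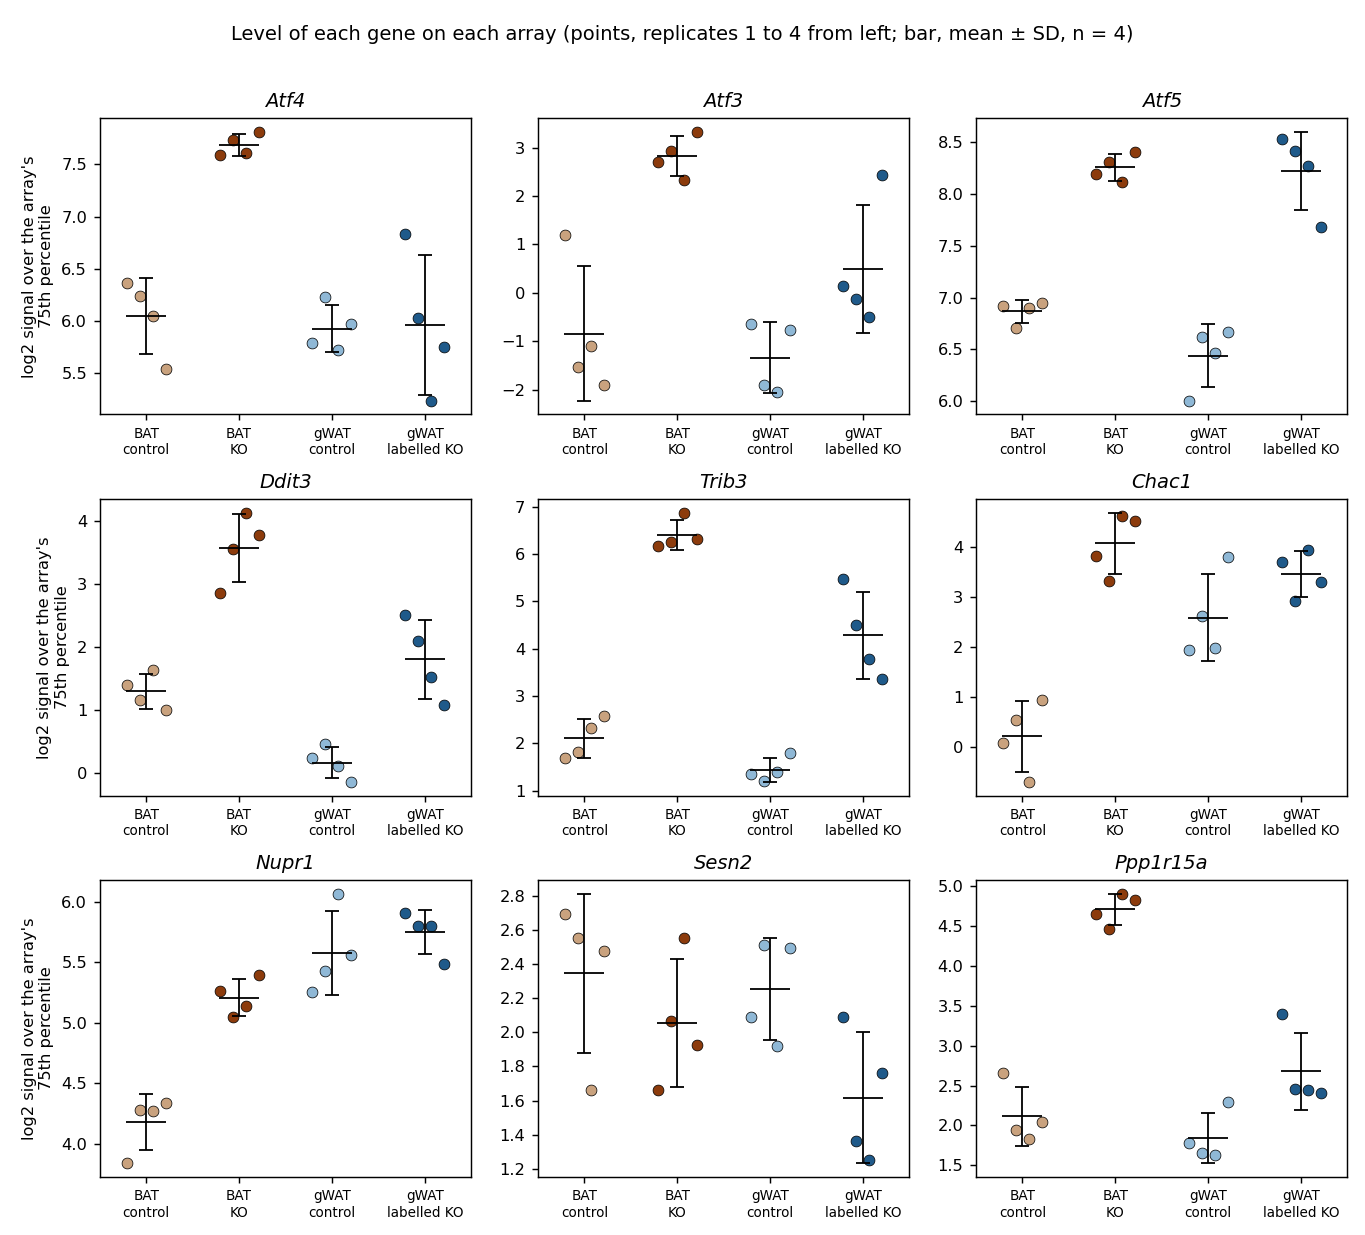
Log2 signal over the 75th percentile of the array (y axis, its own scale in each panel) for each of the 9 genes on each of the 16 arrays, by depot and genotype. Points are arrays, replicates 1 to 4 from left to right, and bars give the mean ± SD (n = 4). For 8 genes all BAT KO points lie above all BAT control points, whereas in gWAT this holds for 5. Groups did not overlap, in either direction, for 57.1% of all genes tested in BAT and 24.2% in gWAT.

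Trib3 is a pseudokinase induced by Atf4 and CHOP that feeds back on both and binds Akt. Its mean change was the largest of the 9 in each depot, although in BAT Atf3 exceeded it with slide as a fixed block (4.73 against 3.83) and without control replicate 1 (4.34 against 4.17). In BAT its log2 level was 1.69, 1.82, 2.32 and 2.57 in controls and 6.18, 6.25, 6.87 and 6.32 in Adipo-Pgam1 KO mice. The gWAT levels were 1.35, 1.19, 1.40 and 1.79 in controls and 5.47, 4.50, 3.78 and 3.36 in the arrays labelled KO. The lowest array labelled KO stood above the highest control in either depot, with a wider spread in gWAT. The change was 4.30 in BAT (SE 0.23, adjusted p = 5.68e-06) and 2.85 in gWAT (SE 0.41, adjusted p = 0.00479), which is 7.19-fold.

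Chac1 degrades glutathione and is a standard Atf4 target. Its BAT level was 0.08, 0.54, -0.70 and 0.95 in controls and 3.82, 3.32, 4.62 and 4.52 in Adipo-Pgam1 KO mice, a change of 3.85 (SE 0.40, adjusted p = 7.01e-05) and 14.4-fold. Chac1 in gWAT was at 1.94, 2.63, 1.98 and 3.79 in controls and at 3.71, 2.91, 3.94 and 3.29 in the arrays labelled KO. The gWAT groups overlapped because control replicate 4 lay among the arrays labelled KO. The difference there was 0.88 (SE 0.42, adjusted p = 0.17). Without control replicate 4 it was 1.28 and passed the test (adjusted p = 0.03), whereas against control replicate 4 alone, the control that shared their slide, it was -0.33.

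Nupr1, a small chromatin protein induced by many stresses, rose least among the called genes. Its level in BAT was 3.84, 4.28, 4.27 and 4.34 in controls and 5.26, 5.05, 5.14 and 5.39 in Adipo-Pgam1 KO mice, a change of 1.03 (SE 0.14, adjusted p = 0.000271). Its gWAT levels were 5.26, 5.43, 6.07 and 5.56 in controls and 5.91, 5.80, 5.80 and 5.49 in the arrays labelled KO. Those groups overlapped, and the difference was 0.17 (SE 0.19, adjusted p = 0.564). With scaling by Actb and Rplp0, which lowered the BAT change of every gene alike, that of Nupr1 was 0.44 (adjusted p = 0.041).

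Sesn2, which encodes a leucine-binding inhibitor of mTORC1 and is a target of both Atf4 and p53, was the 1 gene of the 9 not called in BAT. There it was at 2.69, 2.55, 1.66 and 2.48 in controls and at 1.66, 2.07, 2.55 and 1.93 in Adipo-Pgam1 KO mice. In gWAT it was at 2.09, 2.51, 1.92 and 2.49 in controls and at 2.09, 1.36, 1.25 and 1.76 in the arrays labelled KO. The groups overlapped in both depots. The difference was -0.29 in BAT (SE 0.26, adjusted p = 0.355) and -0.64 in gWAT (SE 0.22, adjusted p = 0.0806). In BAT its sign depended on the scaling, at 0.24 with spike-in scaling (adjusted p = 0.503) and -0.88 with scaling by Actb and Rplp0 (adjusted p = 0.00799). These scalings moved the median of all genes in BAT by 0.54 and -0.59.

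Ppp1r15a encodes Gadd34, the stress-induced subunit that directs protein phosphatase 1 to eIF2. In BAT it was at 2.66, 1.94, 1.83 and 2.05 in controls and at 4.66, 4.46, 4.90 and 4.83 in Adipo-Pgam1 KO mice, a change of 2.60 (SE 0.19, adjusted p = 1.6e-05) and 6.05-fold. Levels in gWAT were 1.78, 1.66, 1.62 and 2.30 in controls and 3.40, 2.46, 2.44 and 2.41 in the arrays labelled KO. All gWAT arrays labelled KO lay above the controls, replicate 1 far above the other 3. The difference of 0.84 did not pass the test (SE 0.26, adjusted p = 0.0547), but it passed in 5 of 23 alternatives. These were spike-in scaling (adjusted p = 0.00693), 1 fit over the 16 arrays (adjusted p = 0.0174), normexp (adjusted p = 0.0431), the strict filter (adjusted p = 0.049) and leaving out control replicate 4 (adjusted p = 0.0433). Its constitutive relative Ppp1r15b fell in BAT by 0.71 (adjusted p = 0.00223).

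In gWAT, 3 of the 9 genes, Trib3, Atf5 and Ddit3, were called higher in the arrays labelled KO. None was called lower by limma or by the methods' t-test, and Sesn2 alone was lower at an unadjusted p below 0.05. Over all 14135 genes tested in gWAT, 9.96% were called higher and 7.86% lower. The groups did not overlap for 5 genes, these 3 with Atf3 and Ppp1r15a, against 24.2% of all genes tested. The median log2 change of the 9 genes was 0.88 against 0.047 over all genes. Replicate 1 was the highest of the 4 arrays labelled KO for 7 of the 9 genes, and its mean deviation from the controls over the 9 genes was 1.53, against 0.95, 0.76 and 0.93 for the other 3. Replicate 4, from the 14-week-old mouse, was the lowest of the 4 for 5 genes, while it held the highest Atf3. With slide as a fixed block, which leaves the 4 arrays labelled KO against control replicate 4, none of the 9 genes was called and 1.3% of all genes were, while 3 of the 9 were higher and 1 lower at an unadjusted p below 0.05. The changes on that slide were 2.49 for Trib3 (adjusted p = 0.125), 1.95 for Ddit3 (adjusted p = 0.101) and 1.56 for Atf5 (adjusted p = 0.0916). In BAT that block likewise leaves the 4 KO arrays against 1 control, replicate 4. The changes of the 8 genes called in BAT then ran from 0.87 for Nupr1 to 4.73 for Atf3.

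**Figure D2:**
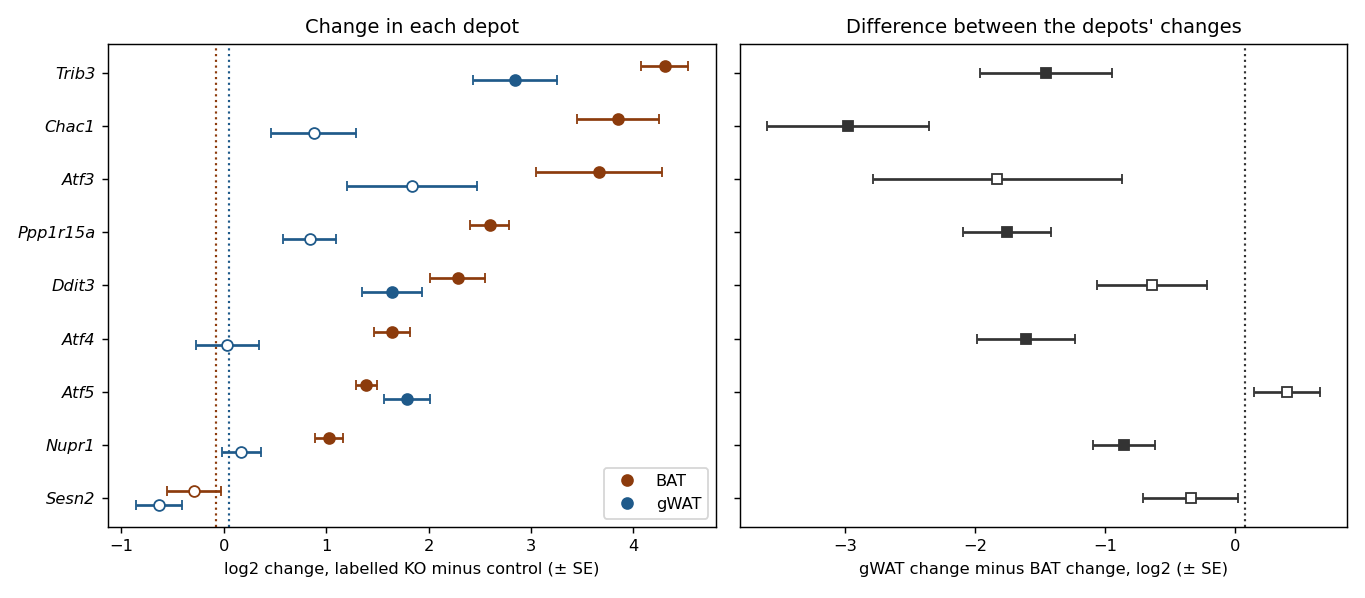
Left, log2 change (x axis, arrays labelled KO minus controls) of each gene in BAT and gWAT, and right, the gWAT change minus the BAT change, each ± SE from limma. Filled symbols passed an adjusted p below 0.05, open symbols did not, and dotted lines mark the median of all genes tested. Trib3 leads in both depots at 4.30 and 2.85, and 5 filled differences lie below 0 on the right.

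Whether the change differed between the depots was tested as an interaction in 1 fit over the 16 arrays. It differed for 5 of the 9 genes, all more positive in BAT. Over all 14795 genes tested, 21% were called with a change more positive in BAT and 27.3% with one more positive in gWAT. The gWAT change minus the BAT change was -2.97 for Chac1 (SE 0.62, adjusted p = 0.00139), -1.76 for Ppp1r15a (SE 0.34, adjusted p = 0.000765) and -1.61 for Atf4 (SE 0.38, adjusted p = 0.00296). It was -1.46 for Trib3 (SE 0.51, adjusted p = 0.0274) and -0.86 for Nupr1 (SE 0.24, adjusted p = 0.00873). Trib3 lost this call when any of 5 single arrays was left out, BAT control replicate 1 or 2, BAT KO replicate 3, gWAT control replicate 4 or replicate 3 of the gWAT arrays labelled KO (adjusted p from 0.0523 to 0.0582), with slide as a random block (adjusted p = 0.0625) and with scaling by Actb and Rplp0 (-0.92, adjusted p = 0.114). Nupr1 lost it with median centring (adjusted p = 0.0514) and with scaling by Actb and Rplp0 (-0.32, adjusted p = 0.213). The difference did not pass the test for Atf3 at -1.83 (SE 0.96, adjusted p = 0.13), Ddit3 at -0.64 (SE 0.42, adjusted p = 0.229), Sesn2 at -0.34 (SE 0.36, adjusted p = 0.456) and Atf5 at 0.40 (SE 0.25, adjusted p = 0.211). Atf3 passed at -2.51 without BAT control replicate 1 (adjusted p = 0.0196) and at -2.48 without replicate 4 of the gWAT arrays labelled KO (adjusted p = 0.0217). Atf5 passed without that same replicate 4, at 0.58 and more positive in gWAT (adjusted p = 0.0301), and at 0.93 with scaling by Actb and Rplp0 (adjusted p = 0.00127), but was at -0.23 under quantile normalization. With slide as a fixed block the calls of Atf4, Chac1 and Ppp1r15a held, and those of Trib3 (adjusted p = 0.245) and Nupr1 (adjusted p = 0.228) did not.

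Between the depots of control mice, 4 of the 9 genes differed, 2 in each direction. Of all 14279 genes tested, 36.9% were called higher in BAT and 30.8% higher in gWAT, and groups did not overlap for 60.8%. Chac1 was lower in BAT by 2.37 (5.16-fold, SE 0.44, adjusted p = 0.000226) and Nupr1 by 1.40 (SE 0.17, adjusted p = 3.85e-06). Ddit3 was higher in BAT by 1.14 (SE 0.30, adjusted p = 0.00359) and Atf5 by 0.43 (SE 0.18, adjusted p = 0.045). The Atf5 call held in 7 of 21 alternatives. It was lost in 13, among them leaving out BAT control replicate 1, 3 or 4 or gWAT control replicate 1 or 3 (adjusted p from 0.0686 to 0.156), spike-in scaling (adjusted p = 0.178) and the methods' t-test (adjusted p = 0.0538), and it turned to -0.27 under quantile normalization. The controls of the 2 depots stood apart for these 4 genes. With slide as a fixed block only Nupr1 kept its call between control depots, at -1.25 (adjusted p = 0.0032). Chac1 averaged 0.22 ± 0.71 in BAT controls, 4.07 ± 0.62 in the BAT KO arrays, 2.58 ± 0.86 in gWAT controls and 3.46 ± 0.45 in the gWAT arrays labelled KO (SD, n = 4). Nupr1 averaged 4.18 ± 0.23, 5.21 ± 0.15, 5.58 ± 0.35 and 5.75 ± 0.18 in the same order.

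Ordered by group mean, BAT of Adipo-Pgam1 KO mice came first for 7 of the 9 genes. It stood apart from the next group for Atf4, Ddit3, Trib3 and Ppp1r15a, and overlapped it for Atf3, Atf5 and Chac1, where the next group was the gWAT arrays labelled KO. Trib3 ran from BAT KO through gWAT labelled KO and BAT controls to gWAT controls, with only the last 2 overlapping. Atf5 had BAT KO and gWAT labelled KO together at the top, at 8.26 ± 0.13 and 8.22 ± 0.38 (SD, n = 4), and BAT controls above gWAT controls. Nupr1 was highest in the gWAT arrays labelled KO, overlapping gWAT controls. No neighbours in the order were apart for Sesn2. The share of all genes with such an order is not given, so these counts only describe the 9 genes.

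The genes whose levels ran closest to 3 of the regulators were sought over all 16 arrays, among 12351 genes, by the root mean square difference after each gene was centred on its own mean. Nearest to Atf4, which ranged over 2.58 on the log2 scale, were Rnf185 (0.33), Plekhm2 (0.35) and Sat1 (0.35), the last of which encodes an enzyme of polyamine breakdown. Nearest to Ddit3, with a range of 4.28, were Angptl6 (0.42), Fbxo27 (0.47) and Srxn1 (0.48), which encodes sulfiredoxin. For Trib3, with a range of 5.68, Cbr3 (0.75), Ccdc92 (0.81) and Stbd1 (0.82) came nearest. Among the 9 genes themselves, Ddit3 and Ppp1r15a were each other's nearest at 0.53.

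Of 13 genes that act upstream of Atf4 or on eIF2, namely the eIF2 kinases, eIF2, eIF2B and Ppp1r15b, 3 were called higher in BAT, 5 lower and 5 not, with a median change of -0.11. Of all genes, 27.5% were called higher and 33.9% lower, with a median of -0.08. The largest called changes were in Ppp1r15b (-0.71), the heme-regulated kinase Eif2ak1 (-0.61, adjusted p = 0.000522), Eif2s2, the beta subunit of eIF2 (0.61, adjusted p = 0.00151), and Eif2s3x, its gamma subunit (-0.60, adjusted p = 0.00846). Eif2ak3 (PERK) was also higher, by 0.55 (adjusted p = 0.00152), whereas Eif2ak4 (GCN2) differed by 0.13 (adjusted p = 0.428) and Eif2ak2 (PKR) by -0.31 (adjusted p = 0.217). In gWAT only Eif2s2 was called, at 0.67 (adjusted p = 0.0482), beside 9.96% of all genes called higher and 7.86% lower. The arrays do not measure phosphorylation of eIF2.

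Of 15 further bZIP genes whose proteins can pair with Atf4, 7 were called higher in BAT, 4 lower and 4 not. Of all genes tested there, 27.5% were called higher and 33.9% lower. The median of the 15 was 0.64 against -0.08 over all genes. Those of the 15 that rose most were Batf by 3.0 (adjusted p = 7.26e-06), Fosl2 by 2.39, Maf by 2.24 (adjusted p = 0.000614) and Batf3 by 1.95 (adjusted p = 0.000489). Batf and Batf3 are best known from lymphocytes and dendritic cells. The C/EBP family did not move together, since Cebpd rose by 1.82 (adjusted p = 0.00092) while Cebpa fell by 1.11 (adjusted p = 0.000116), Cebpb by 0.83 (adjusted p = 0.00436) and Cebpg, a frequent partner of Atf4, by 0.34 (adjusted p = 0.0206). In gWAT none of the 15 was called by limma, beside 9.96% of all genes called higher and 7.86% lower. At an unadjusted p below 0.05 there was 1, and 1 was called by the methods' t-test. The median there was -0.0041, and the changes ran from -0.62 for Jun (adjusted p = 0.233) to 0.47 for Batf (adjusted p = 0.151).

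Of 33 genes tested in BAT that lie downstream of Atf4 in amino acid supply and stress signalling, 17 were called higher, 4 lower and 12 not, beside 27.5% and 33.9% of all genes. Their median was 0.68 against -0.08 over all genes. The largest changes were those of the secreted factors Gdf15, at 9.25 (SE 0.59, adjusted p = 1.11e-05), and Fgf21, at 6.86 (SE 0.46, adjusted p = 1.21e-05), followed by Psat1 of serine synthesis at 4.89 (adjusted p = 8.93e-07) and Aldh18a1 of proline synthesis at 4.69 (adjusted p = 1.73e-06). Gdf15 was well above background on 2 of the 4 BAT control arrays and Fgf21 on 1, so the sizes of these changes rest on signals near background. Stc2 (3.54) and Slc7a11 (3.33), also called higher, were well above background on 0 of the 4. Gdf15, Fgf21, Stc2 and Slc7a11 entered the test through the KO arrays alone. For them the filter favoured a rise, and the count called higher includes them. The 4 that fell were Eif4ebp1 by 1.11 (adjusted p = 0.000278), Vldlr by 1.01 (adjusted p = 0.00119), the glutamine transporter Slc1a5 by 0.94 (adjusted p = 0.000935) and Cebpb, which is also in the bZIP list. Asns, asparagine synthetase and the textbook target, differed by 0.15 (SE 0.12, adjusted p = 0.329). It was at 5.62, 5.77, 5.73 and 5.31 in BAT controls and at 5.70, 5.63, 5.89 and 5.79 in Adipo-Pgam1 KO mice, so it overlapped like Sesn2.

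In gWAT, where 31 of these targets were tested, 11 were called higher, 3 lower and 17 not. Of all genes tested there, 9.96% were called higher and 7.86% lower. The median of the targets was 0.29 against 0.047 over all genes. Fgf21 entered this test through the arrays labelled KO alone. Fgf21 rose by 4.15 (SE 0.61, adjusted p = 0.00513; well above background on 3 of 4 control arrays), Mthfd2 of mitochondrial folate metabolism by 3.49 (adjusted p = 0.000547), Gdf15 by 3.01 (adjusted p = 0.0122) and Aldh18a1 by 1.68 (adjusted p = 0.00245). Beside these calls, Atf4 itself differed in gWAT by 0.034 (adjusted p = 0.952). Per array, Fgf21 ran 2.24, 0.68, -0.42 and -0.12 in replicates 1 to 4 of the arrays labelled KO. As for Trib3, Ddit3 and Ppp1r15a, its highest value was in replicate 1.

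The Atf6 and Xbp1 arms of the unfolded protein response run beside the eIF2 arm. Of 22 of their genes, 16 were called higher in BAT, none lower and 6 not, beside 27.5% and 33.9% of all genes. Their median was 0.57 against -0.08 over all genes. None of the 22 was lower in BAT at an unadjusted p below 0.05 or by the methods' t-test either. The largest were the sensor Ern1 at 2.58 (adjusted p = 4.03e-06), Sdf2l1 at 1.93 (adjusted p = 0.000759), Atf6 at 1.51 (adjusted p = 1.9e-05) and the secreted Manf at 1.30 (adjusted p = 4.27e-05). Hspa5, which encodes the chaperone BiP, rose by 1.16 (adjusted p = 5.65e-05), less than Trib3, Chac1, Atf3, Ppp1r15a, Ddit3, Atf4 and Atf5 did. In gWAT 3 of the 22 were called higher, beside 9.96% of all genes. These were Derl1 at 1.58 (adjusted p = 0.00314), Atf6 at 0.77 (adjusted p = 0.047) and Dnajb11 at 0.41 (adjusted p = 0.0443). The median of the 22 was 0.18 against 0.047 over all genes. None of the 22 was called lower there by limma, beside 7.86% of all genes, or by the methods' t-test. At an unadjusted p below 0.05, 3 were lower. Hspa5 differed there by 0.34 (adjusted p = 0.137).

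**Figure D3:**
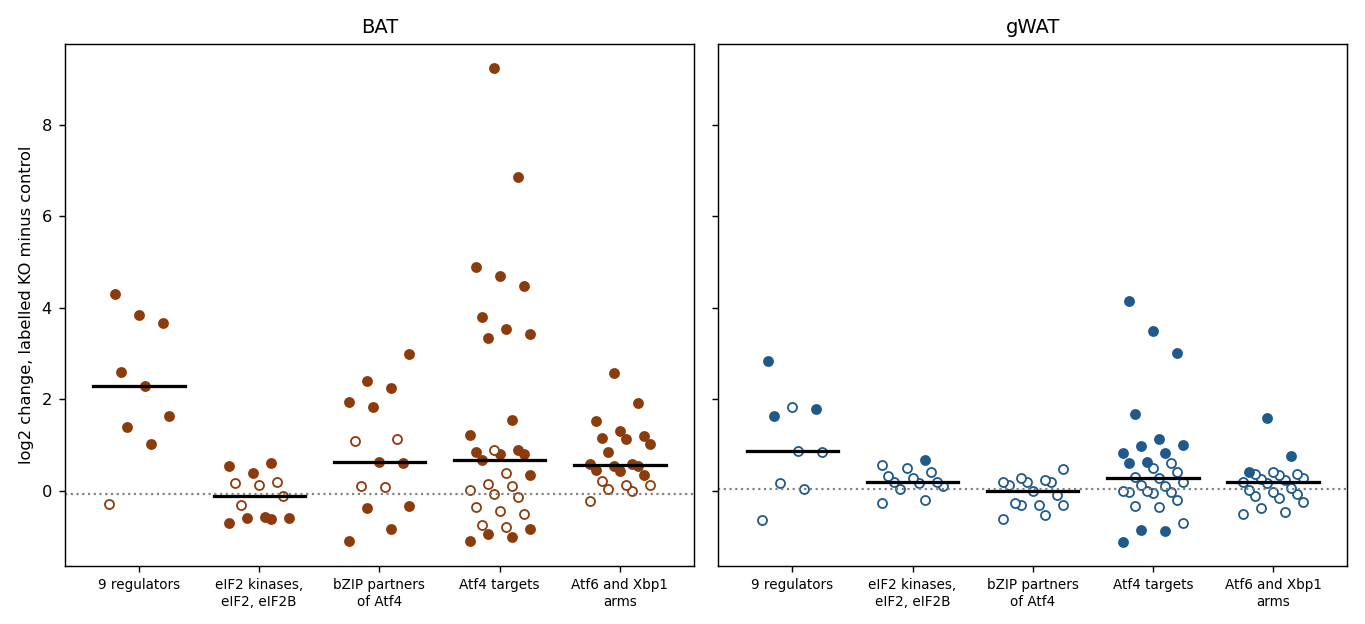
Log2 change (y axis, arrays labelled KO minus controls) of every tested gene of the 9 regulators and of 4 related gene lists, in BAT and gWAT. Filled points passed an adjusted p below 0.05, black bars are list medians, dotted lines the median of all genes tested, and sideways position has no meaning. The 9 regulators have the highest median in each depot, at 2.28 and 0.88, and single targets such as Gdf15 at 9.25 lie above all of them in BAT.

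Markers of macrophages and adipocytes also differed between genotypes in BAT, and their part in the changes of the 9 genes was not tested. In bulk tissue, fewer cells of a type and less RNA per cell cannot be told apart. All 12 macrophage markers were higher in the BAT KO arrays and 10 were called, beside 27.5% of all genes called higher. Trem2 was higher by 4.14 (adjusted p = 0.000203) and Cd68 by 3.07 (adjusted p = 0.000107). The summed signal of the 12, in multiples of the 75th percentile, was 34.1, 35.1, 49.1 and 35.8 in BAT controls and 158, 175, 177 and 122 in Adipo-Pgam1 KO mice. All 12 were well above background on every array. In gWAT 2 of the 12 were called higher, Trem2 and Cd68, beside 9.96% of all genes. The sum there was 113, 89.9, 119 and 129 in controls and 96.6, 131, 165 and 266 in the arrays labelled KO. Of the 4 gWAT arrays labelled KO, replicate 4 had the highest sum and the highest Atf3, and the lowest Atf5, Ddit3 and Trib3. Replicate 1 had the highest of these 3 genes and the lowest sum. Whether the sum and these genes go together was not tested on these 4 arrays.

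Adipocyte markers moved the other way in BAT, where 8 of 9 were called lower and none higher, beside 33.9% and 27.5% of all genes. The summed signal of the 9 was 2730 to 3020 in BAT controls and 969 to 1370 in Adipo-Pgam1 KO mice. In gWAT it was 2390 to 3740 and 2060 to 2760, and 2 of 9 were called lower, beside 7.86% of all genes. The summed signal of 8 brown adipocyte markers was 3280 to 3510 in BAT controls and 11.9 to 20.3 in gWAT controls, in which Ucp1 and Zic1 were not well above background on any array. In BAT of Adipo-Pgam1 KO mice the sum was 1150 to 1870, and 6 of the 8 were called lower, beside 33.9% of all genes. In the gWAT arrays labelled KO it was 66.1 to 182, and 4 of the 5 tested there were called higher, beside 9.96% of all genes. Among these 4 were Cpt1b at 4.23 (adjusted p = 0.00103) and Cidea at 3.41 (adjusted p = 0.00126). As few as 4 of the 8 were well above background on a gWAT control array, so not all 5 passed the filter through the controls. For a marker that entered through the arrays labelled KO alone, the filter favoured a rise. The part of these markers in the changes of the 9 genes was not tested. Markers of skeletal muscle, a neighbour of BAT in dissection, summed to 112 in BAT KO replicate 1 and 20.6 in replicate 3, against 0.536 to 2.09 on the other 6 BAT arrays. In gWAT they summed to 3.22 to 24.9 in controls and to 30.2 to 58.2 in the arrays labelled KO, mostly from Acta1, while Ckm and Myoz1 were not well above background on any gWAT array. Leaving out any single BAT array left 8 of the 9 genes called in BAT. Each time at least 1 of BAT KO replicates 1 and 3 stayed in, so the part of muscle signal was not tested.

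**Figure D4:**
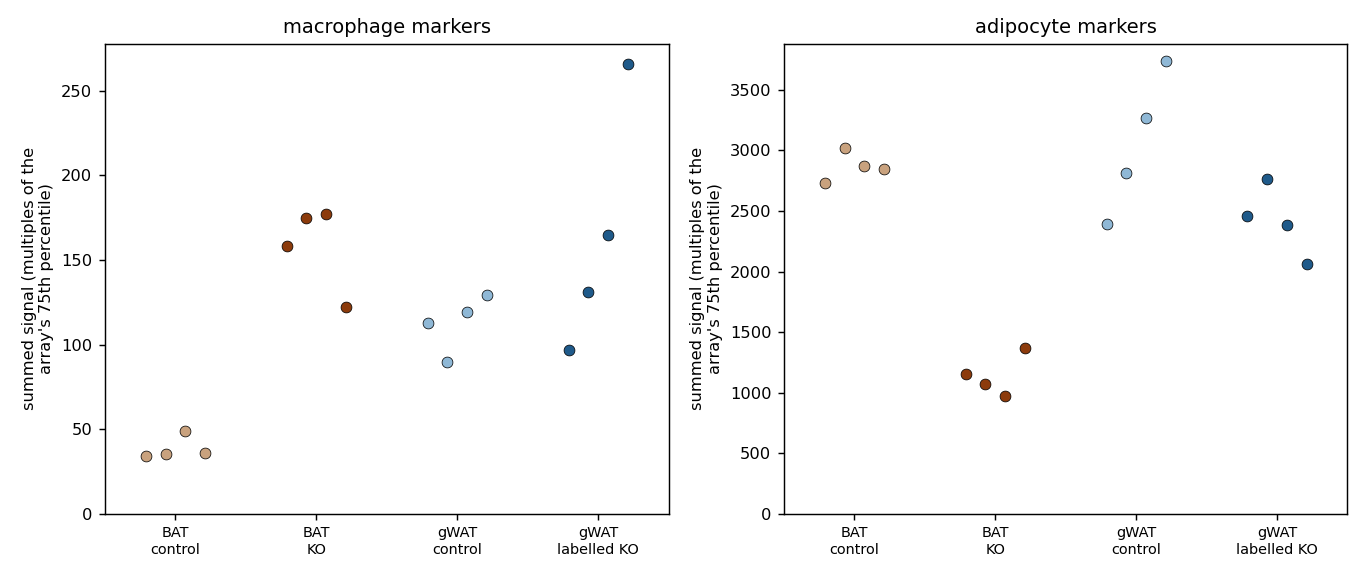
Summed signal of 12 macrophage markers (left) and 9 adipocyte markers (right), in multiples of the array's 75th percentile (y axes from 0), on each of the 16 arrays. Points are arrays, replicates 1 to 4 from left to right in each group. BAT of Adipo-Pgam1 KO mice lies at 122 to 177 for macrophage markers against 34.1 to 49.1 in BAT controls, and at 969 to 1370 against 2730 to 3020 for adipocyte markers.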

How the data were processed

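Total RNA of 16 samples was hybridized to 1-colour Agilent arrays with 56605 probes. The labels and the study's methods give different amounts of RNA per array. The authors deposited the signal intensity of each spot from Agilent Feature Extraction 10.7.1.1, background-subtracted, and a value table on a linear scale, which is close to the ratio of that intensity to the array's 75th percentile (median difference at most 0.00504 on the log2 scale). Per the study's methods, normalization was done in Agilent GeneSpring GX. Its values served as an alternative.

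Here, log2 intensity minus the log2 75th percentile of the array was used, control spots and outlier spots left out. Of 35886 RefSeq probes, 32994 (91.9%) matched a current gene symbol, which gave 22911 genes. Each was read on its brightest probe. A gene was left out of a comparison if every spot of its brightest probe was an outlier on any array of the fit. Groups were compared in R 4.3.3 with limma 3.58.1, in a fit per depot for genotype, and in a fit over all 16 arrays for the difference between depots and for the controls. P-values were adjusted by the Benjamini-Hochberg method over all genes tested. The number of arrays limits the precision. Array totals give no read depth.

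The 9 genes, the other gene lists and the marker lists were chosen with earlier results of these data known, and none of their counts is independent evidence. Named genes are all 9 members, and from each other list up to 4 with the largest change among those called in a depot, with some added for their roles after their values were seen. Of 4 T cell markers tested, 2 were called higher in BAT and none in gWAT, beside 27.5% and 9.96% of all genes. Cd3g, 1 of these 2, was well above background on 1 of the 4 BAT control arrays. It entered the test through the KO arrays alone, so the filter favoured its rise. Of 5 endothelial markers none was called in either depot, by limma, by the methods' t-test or at an unadjusted p below 0.05. Of 5 epididymal markers 2 were tested in BAT, where Defb42 was called lower (-2.12, adjusted p = 3.36e-05), and 1 in gWAT, which was not called. Pycr1 and Trac were not named on the array. Promoter sequences are from RefSeq on GRCm38.p6. Alternatives covered the scaling, background correction, value table, filter, probe choice, model, test, slide, replicate block and each array left out in turn.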

Additional observations from a re-analysis of the deposited data

Results flagged for a closer look

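The genotype change differed between depots, by the interaction test, for 5 of the 9 genes, all more positive in BAT. Of all 14795 genes tested, 21% were called more positive in BAT and 27.3% more positive in gWAT. The gWAT change minus the BAT change was -1.61 for Atf4, -1.46 for Trib3, -2.97 for Chac1, -0.857 for Nupr1 and -1.76 for Ppp1r15a. Pgam1 moved in opposite directions in these depots, by -1.74 in BAT and 0.95 in gWAT. Its part in the difference was not tested.

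In 2 of the 36 groups of 4 arrays examined, 1 array stood far from the other 3, where chance gives about 1 in 20 groups. For Nupr1 in BAT controls, replicate 1 was low, at 3.84 against 4.27 to 4.34, and its gap made up 0.876 of the group's range. For Ppp1r15a in gWAT, replicate 1 of the arrays labelled KO was high, at 3.40 against 2.41 to 2.46, and its gap made up 0.948 of the range. Without that array the Ppp1r15a difference in gWAT was 0.60 (limma, adjusted p = 0.0895), and without control replicate 4 it was 0.99 and passed the test (adjusted p = 0.0433).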

How the results depend on the processing

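In BAT, 8 of the 9 genes were called higher whichever array was left out and under every other alternative, slide as a fixed block aside. That block leaves 1 BAT control beside the KO arrays. With scaling by Actb and Rplp0, Sesn2 was called as well, but as lower (-0.88, limma, adjusted p = 0.00799). Under that scaling 75.7% of all genes were called in BAT, against 61.5% in the main fit. In gWAT, 3 or 4 were called, except 7 with spike-in scaling, 0 with slide as a fixed block and 3 to 5 with an array left out. The 5 calls, which add Chac1 and Ppp1r15a, came without gWAT control replicate 4. The block leaves 1 control on the slide of the arrays labelled KO, and spike-in scaling moved the median of all genes by 0.44 in gWAT. The difference between depots was called for 5 genes, for 3 with the fixed slide block, for 4 to 7 with an array left out, and for 4 with median centring, with the random slide block and with Actb and Rplp0, where Atf5 entered in the opposite direction and Trib3 and Nupr1 left. The control depots differed in 4 genes, in 1 with the fixed block, in 6 with Actb and Rplp0, and in 3 or 4 under the other alternatives, each array left out included.

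Directions turned only for values that had not passed the test, except Atf5 between control depots. In BAT, Sesn2 became 0.24 with spike-in scaling. In gWAT, Atf4 became -0.24 (quantile normalization), -0.024 (Actb and Rplp0), -0.033 (normexp) and -0.0074 (slide block), and ran from -0.26 to 0.28 with an array left out, below 0 without control replicate 1 (-0.012), control replicate 3 (-0.034) or KO replicate 1 (-0.26). Nupr1 became -0.056 with quantile normalization and Chac1 -0.33 with the slide block. In the difference, Atf5 became -0.23 with quantile normalization and Sesn2 0.19 with Actb and Rplp0. Between control depots, quantile normalization gave -0.42 for Atf4, -0.27 for Atf5 and -0.078 for Sesn2, spike-in scaling gave -0.11 for Atf4 and -0.14 for Sesn2, normexp gave -0.065 for Atf4, and the slide block gave -0.37 for Atf4 and -0.38 for Atf3. Sesn2 ran from -0.024 to 0.32 there with an array left out (-0.024 without BAT control replicate 1, -0.020 without gWAT control replicate 3), and Atf3 from -0.18 (without BAT control replicate 1) to 0.86. The causes were not tested.

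Within a depot, deviations from the group mean were compared between control and KO arrays of the same number. They correlated at 0.00035 to 0.22 in BAT and -0.14 to 0.43 in gWAT. The best-matching KO array had the same number for control replicates 2 and 3 in BAT and for control replicate 2 in gWAT. Whether BAT and gWAT arrays of the same number deviate together was not tested. With the replicate block, 8 genes were called in BAT, 4 in gWAT (Atf3 at an adjusted p of 0.0412), 5 in the difference and 3 between control depots. In gWAT 2519 of all genes were called, and 1083 with the replicate block, 184 with slide as a fixed block, 1134 with no filter on dim probes, 1612 with the methods' t-test, 1378 with median centring, 5086 with spike-in scaling and 4022 in 1 fit over 16 arrays.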
